A study of Mus musculus with 6 samples.

Results

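The Ly6 and uPAR-type proteins are small surface or secreted proteins built from a fold of finger-like loops that is held together by disulfide bonds. Most are tied to the outer membrane by a glycosylphosphatidylinositol (GPI) anchor, and a few are secreted. In stratified epidermis the family includes antigens of the suprabasal and granular layers, the receptor for the protease urokinase, and a secreted regulator of nicotinic acetylcholine receptors. The 9 genes described here were chosen by name as members expressed or reported in keratinocytes: Ly6d, Ly6g6c, Lypd3, Lypd5, Plaur, Slurp1, Ly6e, Ly6a and Ly6k. All 9 were found among the 35275 gene identifiers of the deposited table.

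The samples were epidermal cells of CD1 IGS mouse embryos taken at embryonic stage E16.5, after doxycycline chow from E14.5. In the K10-spastin group (genotype K10rtTA;TREspastin) the keratin 10 promoter drives a doxycycline-dependent activator in suprabasal cells, which turns on the microtubule-severing enzyme spastin. In both groups epidermis of the back was freed with dispase, dissociated, and sorted for the nuclear fluorescent protein H2BGFP, and 3 K10-spastin and 3 control libraries were made from independent RNA samples. The labels state neither the transgenes of the controls nor how many embryos made up a library, so the p-values below measure the spread between these samples.

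Spast, the induced gene, stood at 1431, 639 and 213 FPKM (fragments scaled by gene length and by library depth) in K10-spastin 1 to 3, against 21.2, 24.0 and 21.4 FPKM in controls 1 to 3. Depth read from the step of the low values was 17.3 to 19.6 M (mega) fragments in K10-spastin and 16.0 to 22.5 M in control libraries. The spinous keratin Krt10 was abundant in both groups, at 13075 to 17318 FPKM in K10-spastin and 23698 to 32513 FPKM in control libraries. It was called lower in K10-spastin (limma adjusted p = 0.0438), but 10 of 16 other settings ended that call. Basal markers were also present. Of 7 tested, 0 were called higher and 1 lower, against 5.14% and 5.9% of all genes tested. At an unadjusted p under 0.05, 4 of the 7 were lower (Krt15, Col17a1, Itga6 and Trp63) and 0 higher. Of all genes tested, 18.7% were lower at that level. The median log2 change of the 7 was -0.78, beside -0.09 for all genes tested. The gene called lower was Krt15, which was not called with any single control left out. The basal keratin Krt14 stood at 606 to 2731 FPKM in K10-spastin and 913 to 1833 FPKM in control, and Krt5 at 1072 to 2670 FPKM in K10-spastin and 1882 to 3700 FPKM in control. Krt15 stood at 70.0 to 449 FPKM in K10-spastin and 1237 to 2095 FPKM in control (limma adjusted p = 0.0269). Summed markers of blood cells (10 genes, Cd207 and Cd3e at 0 throughout) reached 2.46 to 10.2 FPKM in K10-spastin and 2.66 to 6.06 FPKM in control. Summed endothelial markers (8 genes) reached 1.32 to 1.96 FPKM in K10-spastin and 1.72 to 2.33 FPKM in control. Fibroblast markers (8 genes) summed to 58.4 to 135 FPKM in K10-spastin and 181 to 296 FPKM in control. Most of that sum was 1 gene, Postn, at 57.6 to 132 FPKM in K10-spastin and 174 to 253 FPKM in control. The collagen gene Col1a1 stood at 0.0287 to 0.0647 FPKM in K10-spastin and 0.724 to 13.3 FPKM in control. In such bulk libraries, fewer cells of a type and less RNA per cell cannot be told apart.

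Promoter sequences, from RefSeq on build GRCm38.p6, were on hand for 4 of the 9 members, and they are shown because these 4 include both members of chromosome 7 whose K10-spastin libraries all lay above the controls. Each runs from 250 bases before to 50 bases after the annotated start on the plus strand. Capitals mark the matches to the motifs described after them.
Lypd3, chr7:24636320-24636619: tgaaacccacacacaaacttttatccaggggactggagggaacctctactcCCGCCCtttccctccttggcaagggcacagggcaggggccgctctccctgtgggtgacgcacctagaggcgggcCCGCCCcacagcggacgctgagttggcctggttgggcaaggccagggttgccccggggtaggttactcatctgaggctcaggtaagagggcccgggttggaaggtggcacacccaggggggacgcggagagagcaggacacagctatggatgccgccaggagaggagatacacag
Lypd5, chr7:24348946-24349245: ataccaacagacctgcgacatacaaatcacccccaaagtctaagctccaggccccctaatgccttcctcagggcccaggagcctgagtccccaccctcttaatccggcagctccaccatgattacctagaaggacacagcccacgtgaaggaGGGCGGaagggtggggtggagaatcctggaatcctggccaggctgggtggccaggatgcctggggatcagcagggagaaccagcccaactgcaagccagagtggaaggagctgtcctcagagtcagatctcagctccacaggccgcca
Plaur, chr7:24462233-24462532: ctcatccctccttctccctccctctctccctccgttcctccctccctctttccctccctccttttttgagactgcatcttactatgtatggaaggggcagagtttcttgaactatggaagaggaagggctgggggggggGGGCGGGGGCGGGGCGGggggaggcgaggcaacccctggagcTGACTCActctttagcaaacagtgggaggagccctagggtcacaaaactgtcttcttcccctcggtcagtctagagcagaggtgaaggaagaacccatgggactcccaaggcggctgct
Ly6g6c, chr17:35067075-35067374: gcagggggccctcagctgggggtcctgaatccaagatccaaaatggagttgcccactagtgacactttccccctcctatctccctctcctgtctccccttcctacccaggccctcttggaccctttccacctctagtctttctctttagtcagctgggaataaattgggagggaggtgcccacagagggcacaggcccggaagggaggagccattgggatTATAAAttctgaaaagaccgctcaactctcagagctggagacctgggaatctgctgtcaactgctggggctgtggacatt
The search covered both strands for an AP-1 site (TGANTCA), a GRHL site (AACCNGTT), a STAT site (TTCNNNGAA), the GC box bound by SP and KLF factors (GGGCGG), a TEAD site (GGAATG) and a TATA box (TATAAA). The Plaur window held 1 AP-1 match starting 69 bases before the start (position -69), a motif found in 7.79% of 32544 promoters of this length. It also held 3 GC boxes, at positions -111, -105 and -100, the last pair sharing a base. Lypd5 held 1 GC box at position -98 and Lypd3 held 2 on the other strand, at -199 and -125, and 35.9% of all promoters hold that motif. Ly6g6c held a TATA box at position -30, a motif found in 13.6% of promoters. None of the 4 windows held the letters searched for the GRHL, STAT or TEAD sites, which occur in 2.09%, 8.33% and 14.6% of promoters.

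In these cells 3 members were among the abundant transcripts, and the others reached down to a few fragments per library. In the control libraries the order by mean was Ly6d (1155 ± 43.5 FPKM), Ly6g6c (499 ± 77.0), Lypd3 (494 ± 76.4), Lypd5 (64.7 ± 38.4), Ly6e (5.93 ± 1.15), Plaur (1.16 ± 1.02), Ly6a (0.284 ± 0.0881), Ly6k (0.275 ± 0.152) and Slurp1 (0.080 ± 0.0579; SD, n = 3 each). Ly6g6c and Lypd3 did not differ beyond their spread in the controls, and nor did Ly6a and Ly6k. FPKM is scaled by gene length, so levels may be set beside each other between genes. The 9 members together made up 0.797%, 0.353% and 0.369% of all FPKM in K10-spastin 1 to 3, against 0.317%, 0.362% and 0.370% in controls 1 to 3. Their sum was 5125 FPKM in K10-spastin 1, but 2310.5 and 2397 FPKM in K10-spastin 2 and 3, against 2022 to 2327 FPKM in the controls. The summed level was thus above the control range by a wide margin in K10-spastin 1 alone, which is also the library with the most Spast.

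**Figure D1:**
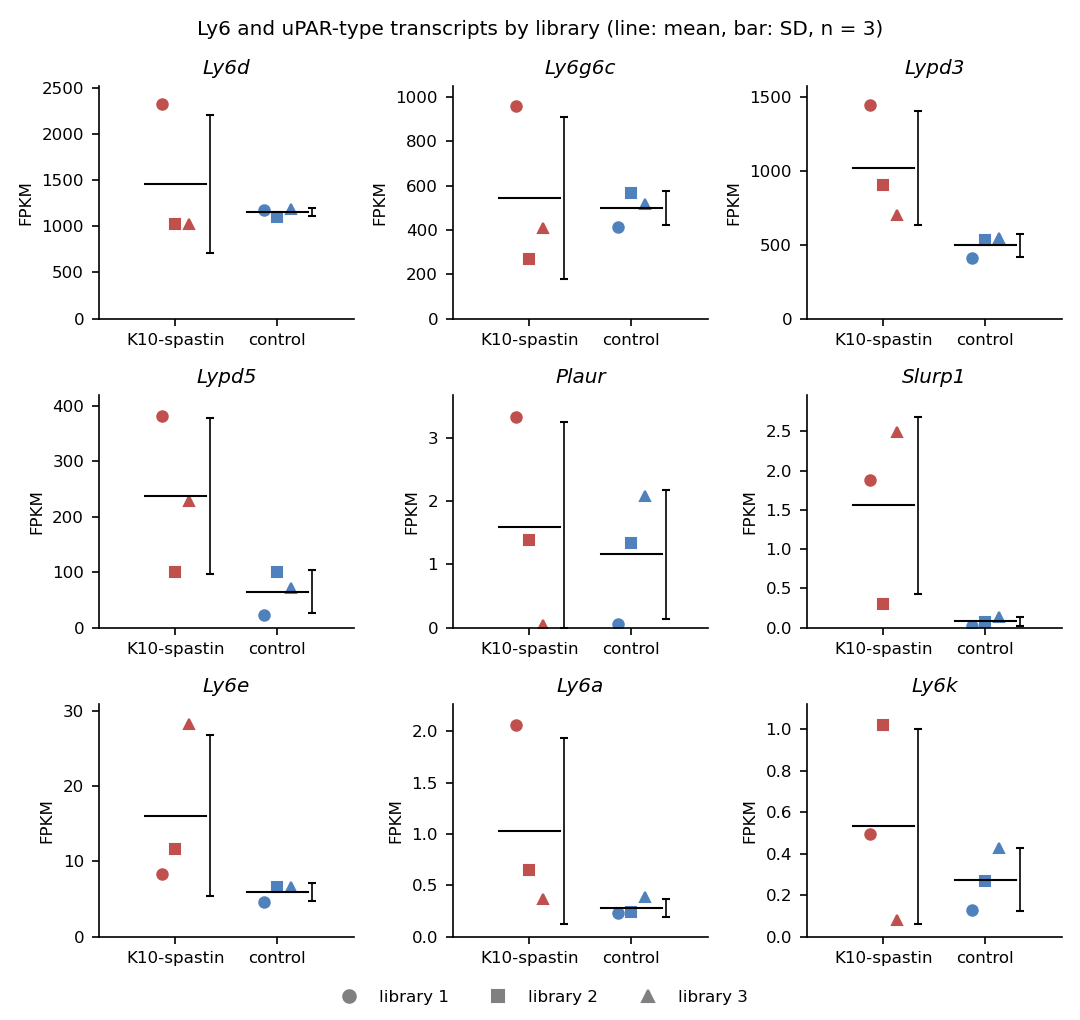
FPKM of each of the 9 members (one panel each, with its own vertical axis from 0) in the 3 K10-spastin libraries (left, red) and the 3 control libraries (right, blue); the line is the mean and the bar the SD, stopped at 0 for Plaur. K10-spastin 1 (circle) is the highest of the 6 libraries in Ly6d, Ly6g6c, Lypd3, Lypd5, Plaur and Ly6a.

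The comparison of K10-spastin with control called none of the members. The test was limma on log2(FPKM + 1), for genes whose 6 values averaged 1 FPKM or more, and a gene was called at a Benjamini-Hochberg adjusted p under 0.05 over all 11071 genes tested. Of the 9 members, 6 passed the filter, with Plaur just inside it at a mean of 1.38 FPKM. Slurp1 (0.819 FPKM), Ly6a (0.655) and Ly6k (0.403) lay below it. No tested member was called, against 11% of all genes tested, 5.14% higher and 5.9% lower. At an unadjusted p under 0.05 there were 3 of 6, all higher in K10-spastin, against 12.8% of all genes that were higher at that level. In the same 3 members, Lypd3, Lypd5 and Ly6e, every K10-spastin library lay above every control, which held for 15.6% of all genes tested. The median log2 change of the 6 was 0.60, beside -0.09 for all genes tested. With no filter, where the other 3 members entered the fit, no member was called and 3.18% of 20977 genes were.

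Lypd3, also known as C4.4A, is a GPI-anchored protein of suprabasal keratinocytes with a tandem pair of the family's domains. It stood at 1446, 902 and 699 FPKM in K10-spastin 1 to 3, against 406, 533 and 543 FPKM in controls 1 to 3. The groups did not overlap. For Lypd3 the K10-spastin libraries fell in the same order as their Spast levels, but for Lypd5 and Ly6e they did not. A link to the level of Spast was not tested. The log2 change was 0.98 ± 0.27 (SE; 95% interval 0.35 to 1.61), a 1.98-fold higher level, with a limma adjusted p of 0.0571. It was called in 2 of 16 other settings: without K10-spastin 3 (log2 change 1.22, limma adjusted p = 0.0275) and with weights for each library (0.55, 0.0354). Those settings called 12.3% and 29.9% of all genes. Without K10-spastin 1, the change was 0.70 (limma adjusted p = 0.0562). Lypd3 shares 225 exon bases, 13.6% of its length, with Gm26550 on the opposite strand, and reads of that stretch cannot be told apart without strand.

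Lypd5, whose human counterpart haldisin is found in the granular layer, stood at 381, 101 and 228 FPKM in K10-spastin 1 to 3, against 23.6, 99.6 and 71.0 FPKM in the controls. The groups met almost at one value, since the lowest K10-spastin library was barely above the highest control. The spread within each group was wide, with an SD of 0.96 in K10-spastin and 1.06 in control on the log2 scale. The log2 change was 1.88 ± 0.62 (SE; 95% interval 0.42 to 3.34), with a limma adjusted p of 0.0888. Control 1 was the lowest by far, and without it the change was 1.28 (limma adjusted p = 0.195). Without control 1 and K10-spastin 1 together it was 0.84 (limma adjusted p = 0.221). No setting tried called it.

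The 2 genes lie near each other on chromosome 7, and their abundance relative to Ly6d, the steadiest member in the controls, was computed after the values were seen. Lypd3 was at 62.3%, 88.1% and 67.9% of Ly6d in K10-spastin 1 to 3, against 34.6%, 48.2% and 45.8% in the controls. This ratio within a library does not depend on how the libraries are scaled, and it was on average 0.76 higher on the log2 scale in K10-spastin libraries, 3 of 3 of them above every control (exact permutation test, two-sided, p = 0.1, the smallest that 3 against 3 can give). Lypd5 was at 16.4%, 9.83% and 22.2% of Ly6d in K10-spastin, against 2.01%, 9.01% and 5.99% in control (exact permutation p = 0.1). Ly6g6c was at 41.4%, 26.2% and 39.8% of Ly6d in K10-spastin, against 35.3%, 51.1% and 43.6% in control, and the groups overlapped (exact permutation p = 0.4). Adjusted over these 3 ratios the p-values were 0.15, 0.15 and 0.4. A ratio shows unequal change and not which of the genes changed.

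**Figure D2:**
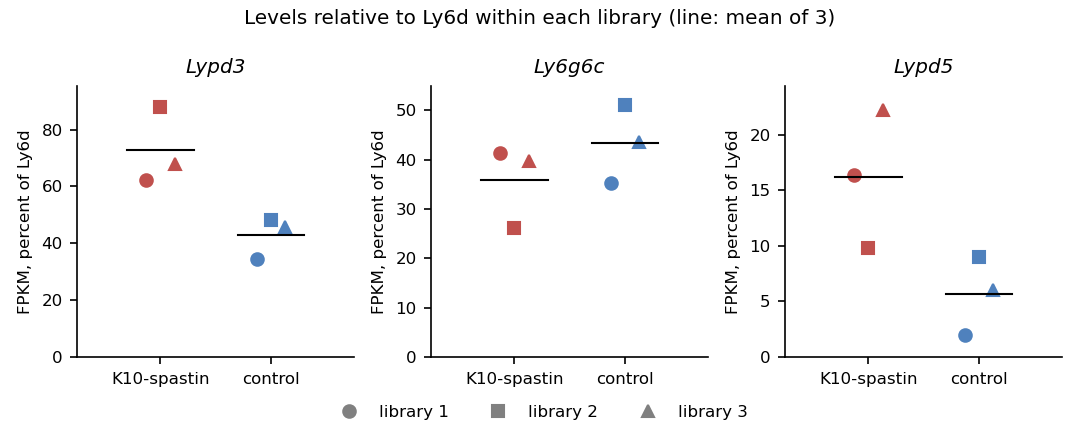
FPKM of Lypd3, Ly6g6c and Lypd5 as a percent of the FPKM of Ly6d in the same library (vertical axes from 0), for the 3 K10-spastin libraries (left) and the 3 control libraries (right); the line is the mean. The K10-spastin libraries lie between 62.3% and 88.1% for Lypd3 and the controls between 34.6% and 48.2%, while the groups overlap for Ly6g6c.

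Ly6d, the mouse counterpart of the human squamous antigen E48, was the most abundant member in every library, with 13166 to 29956 fragments behind each value. It stood at 2321, 1025 and 1029 FPKM in K10-spastin 1 to 3, against 1173, 1105 and 1186 FPKM in controls 1 to 3. K10-spastin 1 was far above every control, while K10-spastin 2 and 3 lay below all of them. The log2 change was 0.22 ± 0.31 (SE; 95% interval -0.50 to 0.95; limma adjusted p = 0.666), and without K10-spastin 1 it was -0.17 (limma adjusted p = 0.226). Ly6d thus had no common direction among the K10-spastin libraries.

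Ly6g6c, encoded in the class III region of the major histocompatibility complex, followed a similar pattern. It stood at 960.5, 268 and 409 FPKM in K10-spastin 1 to 3, against 414, 565 and 517 FPKM in the controls. Again K10-spastin 1 was above every control and K10-spastin 2 and 3 were below every control. K10-spastin 3 was only barely so, at 409 FPKM against 414 FPKM in control 1. The log2 change was -0.07 ± 0.42 (SE; 95% interval -1.06 to 0.93; limma adjusted p = 0.933), and its sign turned in 4 of 16 other settings, one of the scalings among them. The interval leaves room for a change in either direction close to that of Lypd3.

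Plaur, the receptor that gathers urokinase at the surface of migrating keratinocytes, was scarce in both groups. It stood at 3.34, 1.39 and 0.0413 FPKM in K10-spastin 1 to 3, against 0.0637, 1.34 and 2.08 FPKM in the controls. By the step of the values these were at least 81, 38 and 1 fragments in K10-spastin and at least 2, 30 and 48 fragments in control. Each group held a library with almost no Plaur, and the range of the controls lay within that of K10-spastin. The log2 change was 0.17 ± 0.58 (SE; 95% interval -1.21 to 1.54; limma adjusted p = 0.876), and it ranged from -0.84 to 0.71 over 15 other settings.

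The other genes of the plasminogen activator system did not move in a common direction. Of the 15 tested of 20 listed, 2 were called higher and 3 lower, against 5.14% and 5.9% of all genes tested. The change was positive in 5 and negative in 10. Of the 15, 5 lay wholly above the controls and 5 wholly below, against 15.6% and 24.8% of all genes tested. Those above included Plat and Serpinb2 (named after their values were seen), neither of them called (limma adjusted p = 0.172 and 0.112). Serpinb2 stood at 205, 89.1 and 62.0 FPKM in K10-spastin, against 6.17, 54.1 and 35.6 FPKM in control. Plau, urokinase itself (named after its values were seen), stood at 45.2, 74.6 and 45.5 FPKM in K10-spastin, against 53.7, 60.6 and 58.9 FPKM in control. Serpinb8, a serine protease inhibitor, rose to 43.9 ± 11.0 FPKM in K10-spastin, against 16.7 ± 2.98 FPKM in control (SD, n = 3), with a log2 change of 1.33 ± 0.23 (SE, limma adjusted p = 0.0177). Mrc2, a collagen receptor that partners uPAR, fell to 2.05 ± 0.699 FPKM in K10-spastin, against 10.1 ± 3.75 FPKM in control (SD, n = 3), with a log2 change of -1.82 ± 0.32 (SE, limma adjusted p = 0.0182). Leaving out any single control ended the Serpinb8 call, with limma adjusted p of 0.0565 to 0.0711. Mrc2 was not called without control 1 (limma adjusted p = 0.06) or control 3 (0.0871), and 0 to 2 genes of the list were higher and 0 to 3 lower with any one library left out. Mrc2 is also expressed by fibroblasts, whose summed markers, mostly Postn, were lower in K10-spastin. The part of those cells in the fall of Mrc2 was not tested. Anxa2, which binds plasminogen and tissue plasminogen activator at the cell surface, averaged 1158 FPKM in K10-spastin and 1276 FPKM in control (limma adjusted p = 0.427).

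Slurp1 is the secreted member, and in humans its loss causes a palmoplantar keratoderma. It stood at 1.88, 0.298 and 2.49 FPKM in K10-spastin 1 to 3, against 0.0260, 0.0729 and 0.141 FPKM in controls 1 to 3. By the step of the values these were at least 56, 10 and 74 fragments in K10-spastin, against at least 1, 2 and 4 fragments in control. All K10-spastin libraries lay above all controls, but by these counts the controls were at or near the floor of 3 fragments, so no fold is given. It did not pass the filter, and with no filter its limma adjusted p was 0.13. Slurp1 shares 322 exon bases with Them6 on the opposite strand, and Them6 averaged 1.29 FPKM in K10-spastin and 1.09 FPKM in control (limma adjusted p = 0.886). Of 16 nicotinic receptor subunits, the receptors that Slurp1 is known to modulate, 1 passed the filter. That was the muscle-type subunit Chrnb1, at 1.93, 1.34 and 1.27 FPKM in K10-spastin, against 2.60, 2.55 and 3.10 FPKM in control (limma adjusted p = 0.0927).

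Ly6e, an interferon-induced protein that limits entry of some viruses, stood at 8.34, 11.6 and 28.2 FPKM in K10-spastin 1 to 3, against 4.61, 6.59 and 6.60 FPKM in controls 1 to 3. The groups did not overlap. The order of the K10-spastin libraries was the reverse of that of Spast and Lypd3. The log2 change was 1.14 ± 0.41 (SE; 95% interval 0.18 to 2.09), with a limma adjusted p of 0.107. Without K10-spastin 3, its highest library, the change was 0.66 (limma adjusted p = 0.132), and with weights for each library it was 1.65 (limma adjusted p = 0.00749). Of 22 listed genes of the type I interferon response, 8 were tested. Of these, 1 was called higher and 1 lower, against 5.14% and 5.9% of all genes tested. Most changes were negative, 6 against 2 positive, with a median log2 change of -0.34, beside -0.09 for all genes tested. Bst2, which tethers budding viruses, had a log2 change of 0.79 ± 0.18 (SE, limma adjusted p = 0.0357), while Ifi35 changed by -1.20 ± 0.29 (limma adjusted p = 0.0417). Leaving out any single control, or K10-spastin 2, ended both calls, with limma adjusted p reaching 0.143 for Bst2 and 0.13 for Ifi35, and Bst2 was also not called without K10-spastin 3 (0.0722). Ifitm3, a membrane protein of the same response, stood at 33.4, 138 and 45.0 FPKM in K10-spastin, against 10.5, 19.3 and 17.4 FPKM in control (limma adjusted p = 0.055).

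Ly6a, the Sca-1 antigen of mouse stem and endothelial cells, and Ly6k, known from the testis, were scarce. Ly6a stood at 2.06, 0.652 and 0.368 FPKM in K10-spastin 1 to 3, against 0.227, 0.239 and 0.385 FPKM in the controls. These came from at least 28, 10 and 5 fragments, against at least 4, 3 and 5. K10-spastin 1 was the high library and K10-spastin 3 lay within the control range. Transcripts of Ly6c1, Ly6c2 and Ly6i are 96.6%, 94.3% and 92.6% identical to Ly6a over 263, 245 and 336 bases, so reads may be split between them, and all 3 averaged at most 0.113 FPKM in each group. Ly6k stood at 0.493, 1.02 and 0.0821 FPKM in K10-spastin, against 0.127, 0.267 and 0.430 FPKM in control. These came from at least 6, 14 and 1 fragments, against at least 2, 3 and 5. The Ly6k groups overlapped, and 47.6% of its exon bases are shared with Gm17189 on the opposite strand. With no filter the limma adjusted p was 0.301 for Ly6a and 0.595 for Ly6k.

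**Figure D3:**
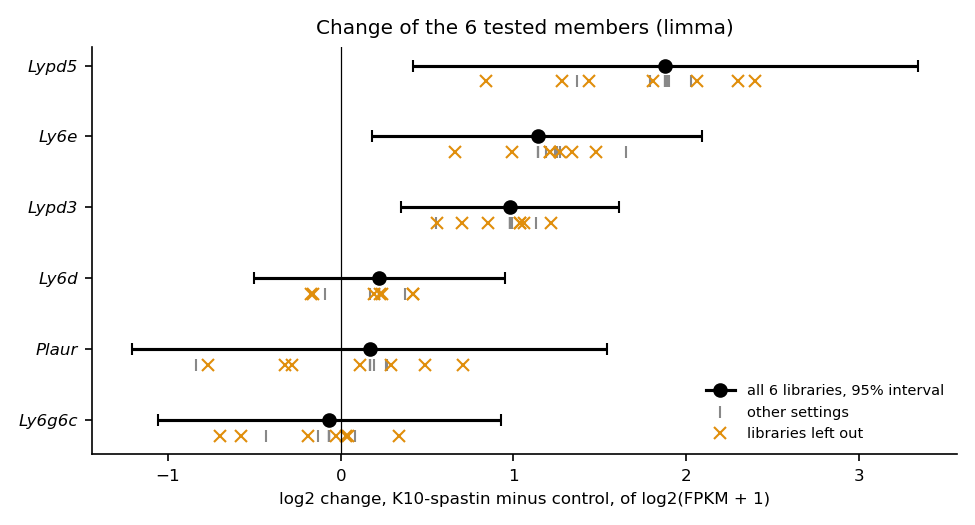
Log2 change of the 6 tested members (K10-spastin minus control, on log2(FPKM + 1)), with the 95% interval of the limma fit on all 6 libraries (black) and, below each, the change under other settings (grey) and with libraries left out (orange). The values for Lypd5, Ly6e and Lypd3 lie right of 0 in every setting, while those for Ly6d, Plaur and Ly6g6c lie on both sides.

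A high K10-spastin 1 was shared by members of different function and level, while a wider spread in K10-spastin was common among all genes. The spread between libraries was larger in K10-spastin than in control for 8 of 9 members (SD of log2 values, all but Lypd5). The same held for 5 of the 6 tested members and for 73.8% of all genes tested. K10-spastin 1 was the highest of the 6 libraries for 6 of 9 members, Ly6e, Slurp1 and Ly6k being the exceptions. Among the 6 tested members it was the highest for 5, against 14.1% of all genes tested. Whether that library's higher level of spastin has a part in this was not tested.

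Of the 31 other Ly6 and uPAR-type genes in the table, 8 were tested and 1 was called, against 11% of all genes tested. Gml, a GPI-anchored relative next to Ly6k on chromosome 15, stood at 5.29, 1.61 and 4.34 FPKM in K10-spastin 1 to 3, against 0.0559, 0.314 and 0.987 FPKM in controls 1 to 3. Its log2 change was 1.66 ± 0.39 (SE, limma adjusted p = 0.0395), but 9 of 15 other settings ended the call, the removal of any one of the controls, K10-spastin 1 or K10-spastin 3 among them (limma adjusted p of 0.073 to 0.127). Pinlyp, a relative of secreted phospholipase inhibitors that lies between Plaur and Lypd3 in gene order, stood at 40.1, 17.7 and 9.16 FPKM in K10-spastin, against 5.30, 5.54 and 5.84 FPKM in control (log2 change 1.60 ± 0.46, SE; limma adjusted p = 0.063). Ly6g6e, from the same chromosome 17 cluster as Ly6g6c, stood at 35.8, 20.0 and 27.9 FPKM in K10-spastin, against 47.6, 44.9 and 44.7 FPKM in control (limma adjusted p = 0.0645). Lypd6b, a modulator of nicotinic receptors, averaged 33.7 FPKM in K10-spastin and 28.1 FPKM in control (limma adjusted p = 0.458).

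By chromosome, the family genes without overlap between groups lay on different sides. On chromosome 15, K10-spastin was above control in 5 of 19 family genes, Slurp1, Slurp2, Gml, Gml2 and Ly6e, and below in 0. On chromosome 7 it was above in 3 of 8, Lypd5, Pinlyp and Lypd3, and below in 0. On chromosome 17 it was below in 3 of 6, Ly6g6d, Ly6g6e and Ly6g6f, and above in 0. These counts include genes below the filter, and Slurp1, Slurp2, Gml2, Ly6g6d and Ly6g6f were not tested. Among tested family genes of any chromosome, 3 of 6 members lay wholly above the controls and 0 below. Of the 8 other tested family genes, 2 lay wholly above and 2 below. Of all genes tested, 15.6% lay wholly above and 24.8% wholly below the controls. No such share was computed for genes below the filter, so the counts by chromosome have no matching background. Slurp1, Slurp2, Gml, Gml2 and Ly6g6f were below 1 FPKM in every control, and no test was made of the pattern. Of 13 tested neighbours of the members that are not members themselves, 2 were called higher, Gml and Ethe1, and 1 lower, Mpig6b. Among all genes tested, 5.14% were called higher and 5.9% lower. Mpig6b shares 22 exon bases with Ly6g6c on the opposite strand. Leaving out any single control ended the calls of Ethe1 and Mpig6b too, with limma adjusted p reaching 0.0775 for Ethe1 and 0.118 for Mpig6b. Mpig6b was also not called without K10-spastin 1 (limma adjusted p = 0.05) or K10-spastin 2 (0.0799).

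**Figure D4:**
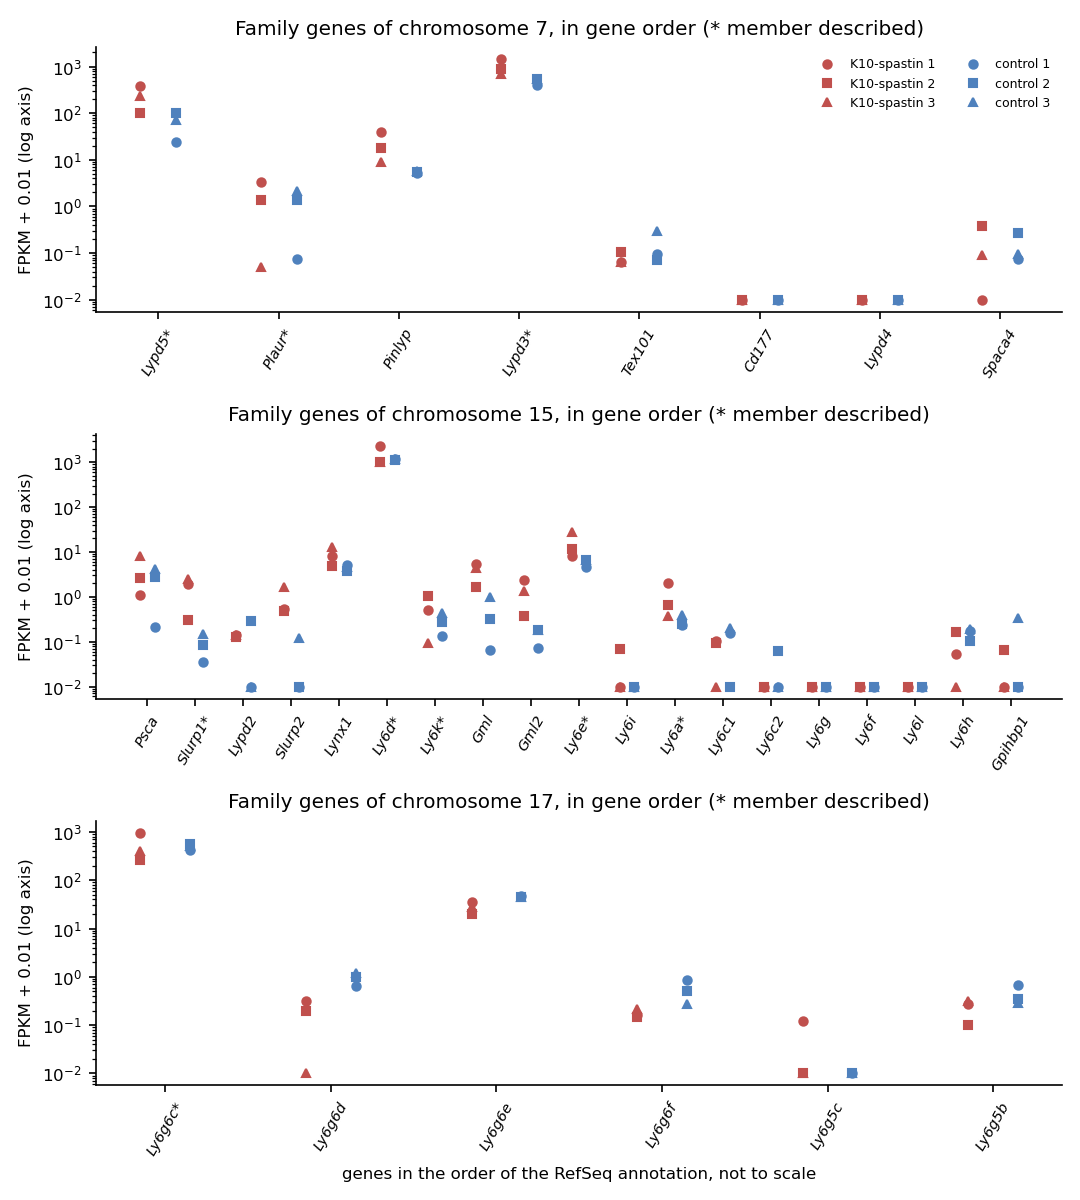
FPKM + 0.01 (log axis) of the Ly6 and uPAR-type genes of chromosomes 7, 15 and 17 in gene order, in K10-spastin (red, left of each gene) and control (blue) libraries; an asterisk marks the 9 members. On chromosome 15 the red points of Slurp1, Slurp2, Gml, Gml2 and Ly6e lie above the blue ones, those of Ly6d overlap them, and on chromosome 17 those of Ly6g6d, Ly6g6e and Ly6g6f lie below.

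Partners that these proteins need or bind gave few calls. Of 30 tested genes of GPI anchor synthesis and transfer, 0 were higher and 1 was lower in K10-spastin, against 5.14% and 5.9% of all genes tested. Their median log2 change was -0.17, beside -0.09 for all genes tested. The gene called lower was Pigh, a subunit of the enzyme for the first step, with a log2 change of -0.79 ± 0.20 (SE, limma adjusted p = 0.0482). Of 15 other settings, 12 ended its call. The reported ligands of Lypd3 had 4 tested genes of 6 and no call, at an unadjusted p under 0.05 in 3 of them, all lower, against 18.7% of all genes tested that were lower at that level. Lgals3, galectin-3, stood at 680 FPKM, 386 FPKM and 619 FPKM in K10-spastin 1 to 3, against 989, 892 and 976 FPKM in the controls (log2 change -0.80 ± 0.22, SE; limma adjusted p = 0.0561).

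Some markers of the layer in which the human counterparts of Lypd5 and Slurp1 are found were higher in K10-spastin. Of 14 tested granular layer and envelope markers, 7 rose and 0 fell, against 5.14% and 5.9% of all genes tested. The median log2 change was 1.57, and 4 to 7 rose with any one library left out, the fewest without control 1 or control 3. This list was chosen with earlier results of these data known, so its count is no independent test. The groups overlapped for the most abundant markers, Krtdap and Lor (limma adjusted p = 0.564 and 0.583). Krt2, below the filter, stood at 0.0882 to 0.509 FPKM in K10-spastin and 0.786 to 1.94 FPKM in control. Rptn rose to 44.9 ± 6.06 FPKM in K10-spastin, against 0.486 ± 0.277 FPKM in control, and Klk7 rose to 544 ± 402 FPKM, against 12.2 ± 4.57 FPKM (SD, n = 3 each; limma adjusted p = 1.23e-04 and 0.00418). The markers summed to 12277 to 28653 FPKM in K10-spastin and 8327 to 14427 FPKM in control libraries. Control 1 had the lowest sum and the least Lypd5, Lypd3, Ly6e, Slurp1 and Ly6a. K10-spastin 2, at 12277 FPKM, summed below controls 2 and 3 (14427 and 12469 FPKM), yet had more of each of these members than either. The highest sum was in K10-spastin 3, while Lypd3 and Lypd5 were highest in K10-spastin 1. Spinous markers, 8 tested, had 0 higher and 2 lower, Krt10 and Mt4, and 0 lower without any one of the controls. The part of these layers in the levels of the members was not tested.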

How the data were processed

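The deposited table holds FPKM as the authors computed it, 1 column per library. The submitters' processing notes name CASAVA and TopHat2, with no version. Counter, build, gene annotation and strand setting: not given in the sources used here. Symbols were matched for 34490 of 35275 identifiers. Members and gene lists were chosen with earlier results of these data known. Besides the members, Spast and each list's 2 smallest p-values and 2 highest means could be named, as could the 2 nearest coding neighbours on each side of a member, and not all of these are reported.

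Depth came from the commonest step of low values over 14953 genes with 1 annotated transcript (GENCODE M21), where 90.4% to 91.2% of values up to 25 fragments were whole within 0.05. Fragments of scarce members come from the largest step dividing all 6 values, within 0.05 of whole, so they are the smallest counts that fit. No count test was run, since the values are FPKM.

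limma 3.58.1 (R 4.3.3, eBayes with a trend, two-sided tests, Benjamini-Hochberg adjustment) was run on log2(FPKM + 1), which understates changes of low genes, for means of at least 1 FPKM, and was tested on simulated data. SE and 95% intervals come from that fit. BLAST 2.17.0 searched for transcript copies (90% identity or more, 200 bases or longer). Tables and figures came from Python 3.11.15 with pandas 2.3.3, numpy 2.4.6 and matplotlib 3.10.9.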

Additional observations from a re-analysis of the deposited data

How the results depend on the processing

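Of all genes tested, 1222 were called in the fit on all 6 libraries, 667 with no filter, 3306 with array weights and 492 with the replicate block, and 145 to 1382 with any one library left out. Of the 6 tested members 0 were called, with 3 at an unadjusted p under 0.05. With array weights 2 were called (Lypd3 and Ly6e), and with any one library left out 0 to 1 were (Lypd3, without K10-spastin 3). Same-numbered libraries deviated from their group means with correlations of -0.128, -0.378 and -0.047, so the numbers were not taken to pair them, and the replicate block called 0 members. Ly6d had a change of -0.09 with array weights and of -0.17 to 0.42 with libraries left out, negative without K10-spastin 1. Ly6g6c had 0.08 under median-of-ratios scaling and -0.70 to 0.34 with libraries left out, positive without K10-spastin 2, K10-spastin 3 or control 2. Plaur had -0.84 with array weights and -0.77 to 0.71 with libraries left out, negative without K10-spastin 1, control 1 or both. Anxa2 had 0.01 and Plau 0.04 under median-of-ratios scaling, and Plau -0.34 to 0.02 with libraries left out, positive without K10-spastin 1 or K10-spastin 3. Median-of-ratios scaling moved the median log2 change of all genes to 0.05, against -0.09. Lypd3, Lypd5 and Ly6e kept a positive change in all 16 other settings (0.55 to 1.22, 0.84 to 2.40 and 0.66 to 1.65). The causes of these shifts were not tested. Plaur could not be fitted with a filter at 5 FPKM, below which it lies. By the smallest counts that fit, values of Slurp1, Ly6a and Ly6k rest on 1 to 74 fragments per library, so depth limits what can be said of them.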
